A study of Mus musculus with 25 samples.

Results

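Smooth muscle contractile genes were followed in heart tissue of 25 mice, which the extraction protocol in the labels gives as left ventricular, as a set of 10 genes (Actg2, Acta2, Myh11, Tagln, Cnn1, Itga8, Smtn, Lmod1, Synpo2 and Mylk) out of 35969 genes with a summed value. The 10 were chosen with earlier results of these mice known, namely their high level in WT HFHS replicate 4, their difference between WT HFHS and WT CNTL, and the difference of Actg2 with carnosine, so those comparisons are given here as descriptions only. All 10 had a mean level high enough to be among the 11984 genes tested.

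The mice were male littermates in 5 groups of 5, put on their diets at 8 to 10 weeks of age and kept on them for 16 weeks. WT CNTL and GPx4+/- CNTL mice ate normal chow, and WT HFHS and GPx4+/- HFHS mice ate a diet high in fat and sucrose. WT HFHS + Carnosine mice also drank 80 mM carnosine, a histidine-containing dipeptide, from week 7 of that diet. GPx4+/- mice lack 1 working allele of glutathione peroxidase 4, an enzyme that reduces lipid peroxides, in all cells from conception, and the line was kept by backcross to C57BL6/J. All mice were fasted before death and received a bolus of either dextrose or saline, and which mouse had which is not stated in the labels. Carnosine was analysed here in WT mice alone.

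Smooth muscle contracts when calcium and calmodulin switch on myosin light chain kinase, which phosphorylates the light chains of smooth muscle myosin so that it pulls on actin. Thin-filament proteins such as calponin and transgelin bind that actin, and serum response factor, working with myocardin at a DNA element called the CArG box, drives many of these genes. In the ventricle these genes are known mainly from the walls of coronary arteries and arterioles, and the smooth muscle actin is also a known gene of activated fibroblasts.

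The values are TPM, transcript abundances corrected for length and rescaled to a common total in each library, summed over the transcripts of each gene and divided by a scaling factor per library. They are called scaled TPM below and can be compared between genes. Reads per gene cannot be had from TPM, and counting error is therefore not stated. Scaling factors ran from 0.864 to 1.16 and the mitochondrial share of TPM per library from 31.3% to 48.7%, with 38.1% in WT HFHS replicate 4. The targeted gene checked the genotype labels, since Gpx4 was at 251 to 383 scaled TPM in the GPx4+/- mice and at 591 to 778 in the WT mice. It does not check the labels of diet, carnosine or replicate. The markers of ventricular cardiomyocytes summed to between 46163 and 57780 scaled TPM per mouse, high in every mouse, but markers of atrial cardiomyocytes ranged from 52.0 to 7690.01, and Myl7, an atrial light chain, was at 887 in 1 GPx4+/- HFHS mouse and at 0 in another. In bulk tissue, fewer cells of a type and less RNA per cell cannot be told apart, and this holds for every level below.

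The sequences that carry the differences between transcripts are shown first. Smooth muscle myosin heavy chain, Myh11, is made in forms that differ by a short insert in the head (known as SM-B with it and SM-A without it) and by the tail (known as SM1 and SM2). In GENCODE M21 (GRCm38), Myh11-204 holds an exon of 21 bases at chr16:14248580-14248600 on the minus strand that Myh11-201 and Myh11-202 lack, and Myh11-202 holds one of 39 bases at chr16:14198050-14198088 that the other two lack, of which 28 bases are coding. Smtn-201 and Smtn-202 share an exon of 165 bases at chr11:3520752-3520916, minus strand, that Smtn-203 skips, and the coding sequence of Smtn-202 ends inside it after 142 bases. The coding bases of each exon are in capitals, with 15 bases of the neighbouring exon in lower case before them and, for the first, also after them:
Myh11 exon of 21 bases: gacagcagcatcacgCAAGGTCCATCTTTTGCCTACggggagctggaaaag
Myh11 exon of 39 bases: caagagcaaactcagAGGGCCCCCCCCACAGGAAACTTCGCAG
Smtn exon of 165 bases: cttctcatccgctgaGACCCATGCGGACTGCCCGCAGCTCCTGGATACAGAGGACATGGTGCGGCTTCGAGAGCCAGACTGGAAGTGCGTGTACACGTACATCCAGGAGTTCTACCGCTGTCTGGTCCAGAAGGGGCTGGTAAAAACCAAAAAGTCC

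Promoter windows of RefSeq (GRCm38.p6, from 250 bases before a start to 50 after it) were on hand for 7 of the 10 genes, namely Acta2, Cnn1, Itga8, Smtn, Lmod1, Synpo2 and Mylk. The windows of Mylk (chr16:34784700-34784999) and Smtn (chr11:3539243-3539542) lie wholly inside the span of the gene in GENCODE M21. A start farther out was therefore not searched for these genes. An exact CArG box, searched on both strands since the box reads the same on each, was in none of the 7 windows and in 1.63% of all 32851 windows. With up to 1 G or C allowed in its A/T core, a match was in 1 of the 7, that of Acta2, and in 9.98% of all windows. The Acta2 window held 2 such matches, beginning 84 and 34 bases before the start. The 120 bases before the start of Acta2 at chr19:34255374-34255493, minus strand, are shown with both matches in capitals because Acta2 is the most abundant of the genes that varied between mice:
Acta2 promoter: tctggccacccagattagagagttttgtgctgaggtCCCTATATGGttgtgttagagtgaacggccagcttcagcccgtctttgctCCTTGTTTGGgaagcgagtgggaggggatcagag

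Among the filament proteins, Acta2, the smooth muscle alpha-actin (ENSMUSG00000035783.9, chromosome 19 from 34241090 to 34255590), was at 80.3 scaled TPM on average over the 25 mice. Replicates 1 to 5 of WT CNTL had 36.6, 74.0, 63.9, 78.2 and 60.7 scaled TPM of Acta2, and those of GPx4+/- CNTL had 51.5, 56.2, 73.7, 62.9 and 57.2. In WT HFHS the 5 mice had 60.0, 101, 88.4, 283 and 108. GPx4+/- HFHS mice had 80.8, 37.5, 68.8, 99.4 and 130.2, and WT HFHS + Carnosine mice had 41.1, 88.9, 101, 55.1 and 50.9. WT HFHS replicate 4 thus held 2.63 times the Acta2 level of the next highest mouse of its group, GPx4+/- HFHS replicate 5 was second of all 25, and the ranges of the 5 groups overlapped. Group means were 128 ± 88.5 (SD, n = 5) in WT HFHS, 83.3 ± 34.6 in GPx4+/- HFHS, 67.4 ± 26.0 in WT HFHS + Carnosine, 62.7 ± 16.2 in WT CNTL and 60.3 ± 8.53 in GPx4+/- CNTL, and from GPx4+/- HFHS downwards each mean lay within 1 SD of its neighbour in that order. The WT HFHS mean exceeded that of GPx4+/- HFHS by more than the SD of the latter, though by less than its own SD, which replicate 4 widened. Without replicate 4 the WT HFHS mean was 89.3 ± 21.1 (SD, n = 4).

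Actg2, the gamma-actin of smooth muscle best known from gut and bladder (ENSMUSG00000059430.14, chromosome 6 from 83512905 to 83536265), was the least abundant of the 10 at a mean of 1.72 scaled TPM. WT HFHS mice had 0.844, 4.03, 1.56, 6.99 and 3.39, and WT HFHS + Carnosine mice had 0.388, 1.69, 1.86, 0.909 and 0.492. GPx4+/- HFHS mice had 1.20, 1.28, 0.814, 1.27 and 4.51, so that replicate 5 stood above the rest of its group. On CNTL, Actg2 was between 0.453 and 1.67 in WT and between 0.481 and 1.91 in GPx4+/- mice. In WT HFHS, 3 of 5 mice lay above every mouse of the other groups but GPx4+/- HFHS replicate 5, and the remaining 2 lay inside the range of the carnosine group. The muscle actin proteins are near-identical, and their coding sequences are alike, though less so. Part of the reads of Acta2 and Actg2 may therefore have been shared with each other and with the striated muscle actins Actc1 and Acta1. This was not tested and would be of most weight for Actg2.

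Myh11, the motor itself (ENSMUSG00000018830.10, chromosome 16 from 14194535 to 14291372), was at 8.25, 14.4, 11.0, 13.6 and 11.5 scaled TPM in WT CNTL and at 11.3, 22.8, 15.6, 48.2 and 27.2 in WT HFHS. It was at 15.6, 9.32, 12.2, 15.3 and 29.6 in GPx4+/- HFHS and at 8.03, 17.8, 22.5, 13.6 and 8.25 in WT HFHS + Carnosine. GPx4+/- CNTL mice lay between 9.78 and 20.7. WT HFHS replicate 4 was again the highest mouse and GPx4+/- HFHS replicate 5 the second, and the lowest WT HFHS mouse lay inside the WT CNTL range. Mylk, the kinase that starts contraction (ENSMUSG00000022836.11, chromosome 16 from 34745210 to 35002420), moved over a narrower range of 9.98 to 25.5 scaled TPM. It was steadiest in WT CNTL, at 12.0 ± 0.389 (SD, n = 5), and in WT HFHS it was at 12.0, 12.8, 15.3, 25.5 and 18.1, a mean of 16.7 ± 5.48. In GPx4+/- HFHS replicate 5 Mylk was at 18.7, against 10.1 to 13.2 in the other 4 mice of that group.

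Among the thin-filament proteins, Tagln, which encodes the actin-bundling protein transgelin (ENSMUSG00000032085.5, chromosome 9 from 45929619 to 45936058), was at 26.5, 55.9, 32.4, 164 and 60.7 scaled TPM in WT HFHS. WT CNTL mice had 19.9, 40.1, 28.7, 38.2 and 28.0, GPx4+/- CNTL mice 24.3, 26.0, 42.8, 32.8 and 28.4. GPx4+/- HFHS mice had 29.9, 23.2, 24.0, 37.6 and 75.4, and WT HFHS + Carnosine mice 17.8, 43.0, 53.0, 26.6 and 19.4. The same pair of mice stood apart, and 4 of 5 GPx4+/- HFHS mice lay within the range of the CNTL mice. Cnn1, calponin 1, which restrains the actin-activated myosin motor (ENSMUSG00000001349.5, chromosome 9 from 22099216 to 22109630), had the widest range of the 10, with a ratio of 25.7 between the highest and the lowest mouse. It was at 1.85, 6.34, 4.77, 26.6 and 8.13 in WT HFHS, at 3.39, 2.50, 3.51, 3.18 and 10.1 in GPx4+/- HFHS and between 1.04 and 4.90 in the 10 CNTL mice. Carnosine mice lay between 1.84 and 6.23.

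Lmod1, leiomodin 1, which nucleates actin filaments in smooth muscle (ENSMUSG00000048096.7, chromosome 1 from 135324807 to 135368065), was at 1.57, 2.55, 2.12, 9.83 and 3.63 scaled TPM in WT HFHS and at 0.979, 2.95, 3.12, 1.80 and 1.06 in WT HFHS + Carnosine. Itga8, the integrin alpha-8 chain, which pairs with beta-1 at the cell surface (ENSMUSG00000026768.10, chromosome 2 from 12106632 to 12301922), was at 0.964, 2.48, 1.23, 11.0 and 2.23 in WT HFHS. In that group replicate 4 exceeded the mean of the other 4 mice 6.39-fold for Itga8, the largest such ratio of the 10, and 3.99-fold for Lmod1. Over the other 4 groups Itga8 stayed between 0.638 and 2.97 and Lmod1 between 0.979 and 3.61.

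Smtn and Synpo2 varied far less. Smtn, smoothelin (ENSMUSG00000020439.17, chromosome 11 from 3517523 to 3540612), lay between 75.3 and 124 scaled TPM in all 25 mice and was the most abundant of the 10 at a mean of 94.5. Its highest mouse was a GPx4+/- CNTL mouse, and WT HFHS replicate 4, at 106, was the highest of its group (93.9 to 102 in the others) and second of all 25 mice. Synpo2, synaptopodin 2 or myopodin, an actin-binding protein of the Z-disc as well as of smooth muscle (ENSMUSG00000050315.14, chromosome 3 from 123076519 to 123236149), lay between 24.3 and 31.7. WT HFHS replicate 4 ranked 5 of 25 for Synpo2, and GPx4+/- HFHS replicate 5 ranked 17 of 25 for Smtn and 14 of 25 for Synpo2.

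**Figure D1:**
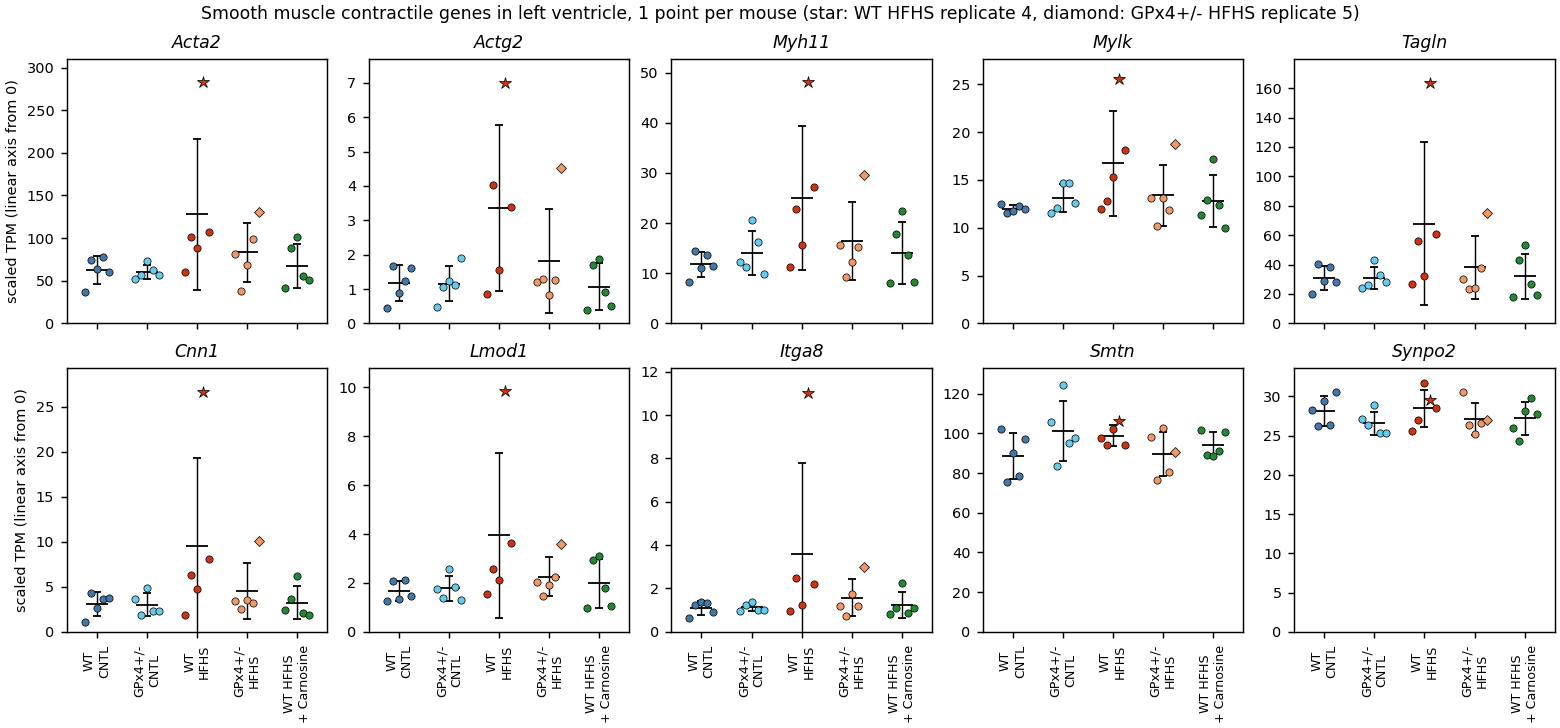
Scaled TPM of each of the 10 genes (linear axes from 0) in the 25 mice by group, 1 point per mouse, with the group mean as a bar and 1 SD as the whisker. WT HFHS replicate 4 (star) is the highest mouse for 8 of the 10 genes, with 283 scaled TPM of Acta2, and GPx4+/- HFHS replicate 5 (diamond) stands above its own group for the same 8, while Smtn and Synpo2 are level.

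The 8 genes other than Smtn and Synpo2, a split made after their values were seen, summed to 575 scaled TPM in WT HFHS replicate 4, to 275 in GPx4+/- HFHS replicate 5 and to between 80.6 and 231 in the remaining 23 mice. The mean of this sum was 258 ± 183 (SD, n = 5) in WT HFHS and 161 ± 71.0 in GPx4+/- HFHS. It was 134 ± 53.6 with carnosine, 124 ± 28.5 in WT CNTL and 125 ± 22.8 in GPx4+/- CNTL. It was 179 ± 51.5 (SD, n = 4) in WT HFHS without replicate 4 and 133 ± 36.4 (SD, n = 4) in GPx4+/- HFHS without replicate 5. WT HFHS therefore had the highest mean with and without that mouse, and its lowest mouse, at 115, lay below the WT CNTL mean.

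The spread between mice of the same group is given as a description, since a high level in WT HFHS replicate 4 was among the reasons for choosing the genes. After the group mean was taken off, the SD of Cnn1 on the log2 scale was 0.80, a value that 1.56% of the 11984 tested genes exceeded. The matching shares were 1.96% for Actg2, 2.07% for Tagln, 2.26% for Itga8, 2.66% for Acta2, 2.73% for Myh11, 2.96% for Lmod1 and 13.2% for Mylk. Without WT HFHS replicate 4 they were 2.04% for Cnn1, 2.15% for Actg2, 2.83% for Tagln, 3.21% for Myh11, 3.82% for Acta2, 4.97% for Lmod1, 5.16% for Itga8 and 19.6% for Mylk. Smtn was near the middle of all genes, with 43.4% more variable than it, and Synpo2 was steadier than most, with 79.6% more variable.

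The 8 genes also varied together within groups. Pearson's r between 2 of them, after subtraction of the group means over 25 mice, lay between 0.69 and 0.96 over 28 pairs with a median of 0.86, and between 0.60 and 0.96 without WT HFHS replicate 4. Against the mean of the other 9 genes, r was 0.97 and Spearman's rho 0.96 for Tagln, and r was 0.96 without the 2 mice farthest from the median. Smtn had r = -0.01 and rho = -0.16 with the other 9, and Synpo2 had r = 0.15 and rho = 0.06. These values describe genes that were picked for a common pattern and share the same 25 libraries, so no p-value is given.

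**Figure D2:**
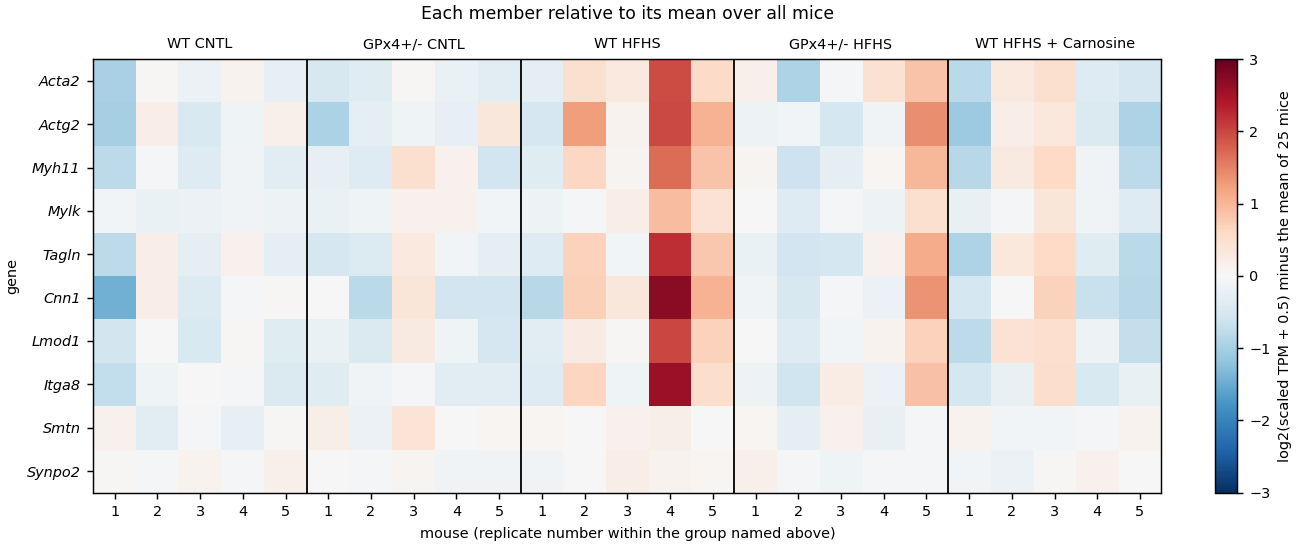
The 10 genes (rows) in the 25 mice (columns, by group and replicate number), coloured by log2(scaled TPM + 0.5) minus the gene's mean over all mice. Mice of the same group differ, with WT HFHS replicate 4 the highest for 8 genes, WT CNTL replicate 1 the lowest for Acta2, Cnn1 and Itga8 and WT HFHS + Carnosine replicate 1 the lowest for Actg2, Myh11, Tagln and Lmod1, while the rows of Smtn and Synpo2 are nearly flat.

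Groups were compared with limma on log2(scaled TPM + 0.5), on which folds of weakly expressed genes come out too small, with p-values adjusted by Benjamini-Hochberg over all 11984 genes. The mice without carnosine were fitted together, so the WT HFHS mice enter the spread behind every interval and p-value among those groups. In GPx4+/- mice the diet changed none of the 10 genes at an adjusted p under 0.05, where 3.34% of all genes tested were called, and none had an unadjusted p under 0.05. The log2 fold changes between GPx4+/- HFHS and GPx4+/- CNTL were between -0.17 for Smtn and 0.42 for Cnn1, with a median of 0.22 against 0.00 over all genes. The smallest adjusted p of the 10 was 0.395, for Smtn, from limma. The 95% interval of Acta2 ran from -0.34 to 1.06 and that of Cnn1 from -0.59 to 1.44, so more than a doubling of either could not be told from no change. Without GPx4+/- HFHS replicate 5 the median was 0.03, Tagln moved from 0.18 to -0.10 and Myh11 from 0.16 to -0.07.

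Genotype on normal chow gave values close to 0 for all 10. Between GPx4+/- CNTL and WT CNTL the log2 fold changes were between -0.08 for Synpo2 and 0.22 for Myh11, none was called with 0.0501% of all genes called, and none had an unadjusted p under 0.05. The 95% interval of Acta2 was -0.72 to 0.68, and the smallest adjusted p from limma was 0.822. Likewise, WT HFHS + Carnosine differed from WT CNTL by -0.15 for Actg2 to 0.16 for Myh11, with none called, 0.234% of all genes called, and none at an unadjusted p under 0.05. There the interval of Acta2 was -0.51 to 0.64 and the smallest adjusted p from limma was 0.684. Mean Acta2 was 67.4 in the carnosine mice and 62.7 in WT CNTL, a difference far inside the SD of either group.

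The comparisons that the genes were selected on follow as values, with those whose fold changes share the WT HFHS mice. Nothing is read from their counts of calls. The fold changes above, for the diet in GPx4+/- mice and for genotype on normal chow, use no WT HFHS mouse. Their intervals and p-values do rest on a spread that includes WT HFHS replicate 4, for which the genes were partly chosen. That mouse can widen them, so they are not free of the selection. Between WT HFHS and WT CNTL the log2 fold change was 1.12 for Cnn1, 1.02 for Actg2, 0.92 for Itga8, 0.91 for Myh11, 0.86 for Acta2, 0.85 for Tagln, 0.81 for Lmod1 and 0.41 for Mylk, and it was 0.16 for Smtn and 0.02 for Synpo2. None of the 10 was called by limma, against 1.18% of all genes. Without WT HFHS replicate 4 the median of the 10 was 0.45 instead of 0.85, with 0.64 for Cnn1, 0.52 for Acta2 and 0.43 for Itga8. All 10 were then still at or above 0, the lowest being Synpo2.

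Between WT HFHS + Carnosine and WT HFHS the log2 fold change was -1.17 for Actg2, -1.06 for Cnn1, -0.89 for Tagln, -0.83 for Itga8, -0.79 for Acta2, -0.75 for Myh11, -0.68 for Lmod1, -0.35 for Mylk, -0.07 for Smtn and -0.07 for Synpo2. None of the 10 was called by limma, as 0% of all genes were. Without replicate 4 of WT HFHS the values were -0.86 for Actg2, -0.58 for Cnn1 and -0.45 for Acta2, and the median went from -0.77 to -0.40. Carnosine mice of this comparison and WT CNTL mice of the diet comparison are set against the same 5 WT HFHS mice, so a high value in those mice enters both.

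Between GPx4+/- HFHS and WT HFHS all 10 values were below 0, from -0.69 for Cnn1 to -0.07 for Synpo2, with none called by limma and 0.0501% of all genes called. Without WT HFHS replicate 4 their median was -0.16 in place of -0.52. The diet by genotype interaction, which asks whether the diet acted differently in the genotypes, was between -0.75 for Myh11 and 0.01 for Synpo2, with a median of -0.60 and of -0.23 without that mouse. None of the 10 was called by limma, as 0% of all genes were, and the value of Smtn was -0.33, or -0.16 with its most abundant transcript alone.

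**Figure D3:**
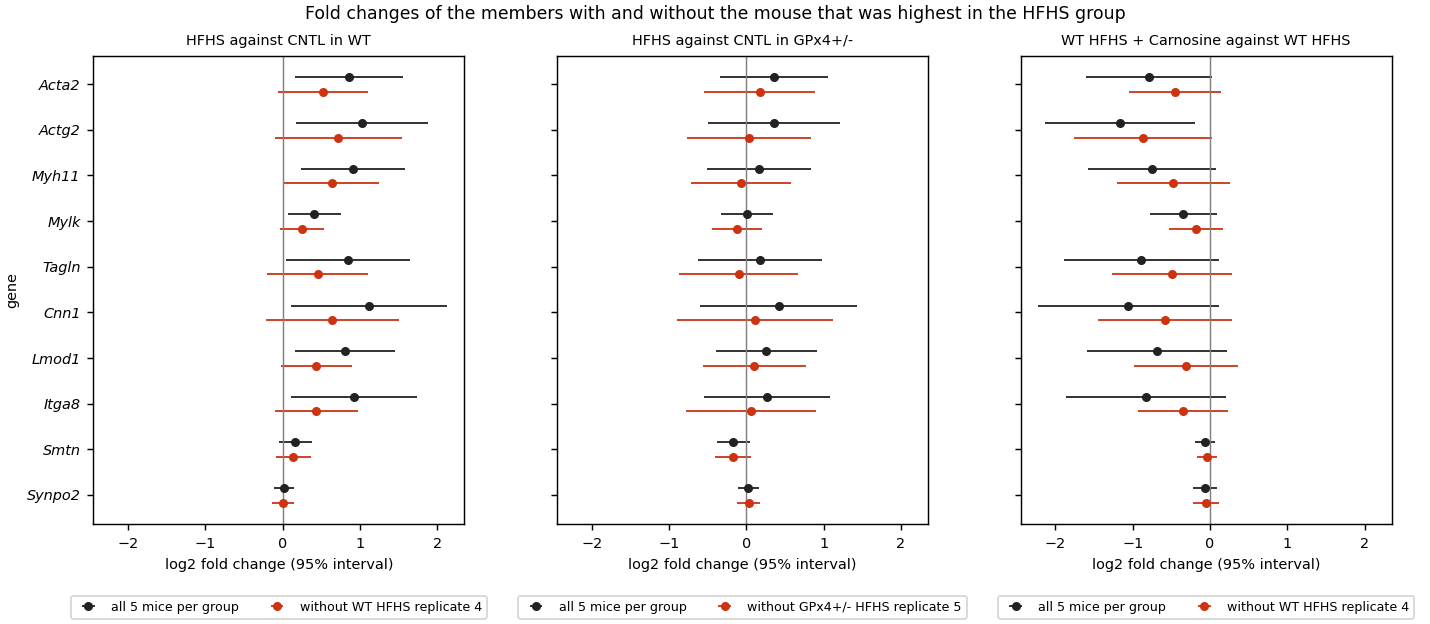
Log2 fold changes of the 10 genes with their 95% intervals from limma for the diet in each genotype and for carnosine on HFHS in WT mice, with all 5 mice per group (black) and without the highest mouse of the HFHS group (red). Without WT HFHS replicate 4, Cnn1 goes from 1.12 to 0.64 in WT and from -1.06 to -0.58 with carnosine, and the values of Smtn and Synpo2 stay close to 0.

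Behind the level gene sums lay transcripts that behaved differently. Of the summed Smtn, Smtn-201, a short form of 436 codons, made up 53.6%, the non-coding Smtn-206 24.5% and Smtn-202, with 921 codons, 14.7%. Smtn-203, the form of 923 codons without the exon of 165 bases, made up 6.29%. Its level in WT HFHS was 2.80, 7.79, 3.94, 19.5 and 9.67 scaled TPM, against 3.97 to 5.31 in WT CNTL, 2.39 to 9.95 in GPx4+/- CNTL and 1.99 to 9.61 in GPx4+/- HFHS, where replicate 5 was the highest. A chow mouse thus lay above GPx4+/- HFHS replicate 5 and above all WT HFHS mice but replicate 4. Smtn-203 thus had its highest level in WT HFHS replicate 4, as the 8 variable genes did, while Smtn-201 ranked 20 and Smtn-202 ranked 18 of 25 in that mouse.

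The proportions of the Myh11 transcripts also differed between mice. Myh11-204, the form with the exon of 21 bases, held 45.3% of Myh11 over all mice, Myh11-201 32.8% and Myh11-202 21.6%. The share with the exon of 21 bases was 52.3% ± 5.03 (SD, n = 5) in WT CNTL, 50.8% ± 5.21 in GPx4+/- CNTL, 47.1% ± 3.97 with carnosine and 48.0% ± 3.03 in GPx4+/- HFHS. In WT HFHS it was 49.6%, 43.0%, 45.0%, 24.5% and 39.5%, and replicate 4 was the lowest of all 25 mice. In that mouse the forms without this exon were at 36.4 scaled TPM against 5.69 to 16.5 in the rest of its group, whereas Myh11-204, at 11.8, was close to the 10.7 of replicate 5. GPx4+/- HFHS replicate 5, with a high total of Myh11, had a share of 44.0%, the lowest of its group, where the others had 47.2% to 52.4%. The exon of 39 bases, in Myh11-202, kept a share between 14.3% and 28.1%, and WT HFHS replicate 4 was within that range.

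Mylk was divided among a full-length kinase of 1950 codons (Mylk-201, 30.7%), a short coding form of 159 codons that carries only the end of the protein (Mylk-203, 17.6%) and the non-coding Mylk-204 (27.5%) and Mylk-207 (18.3%). Full-length Mylk-201 was at 8.57 scaled TPM in WT HFHS replicate 4 against 3.08 to 4.71 in the other 4, a wider gap than that of the summed gene. Synpo2-207 and Synpo2-202, the main forms of Synpo2, made up 53.5% and 36.5% and lay between 12.4 and 17.2 and between 7.82 and 12.6 scaled TPM over all mice, the latter highest in WT HFHS replicate 4. Reads were divided among transcripts by estimation, and for forms that differ by 21 bases the division is less certain than the gene sum.

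**Figure D4:**
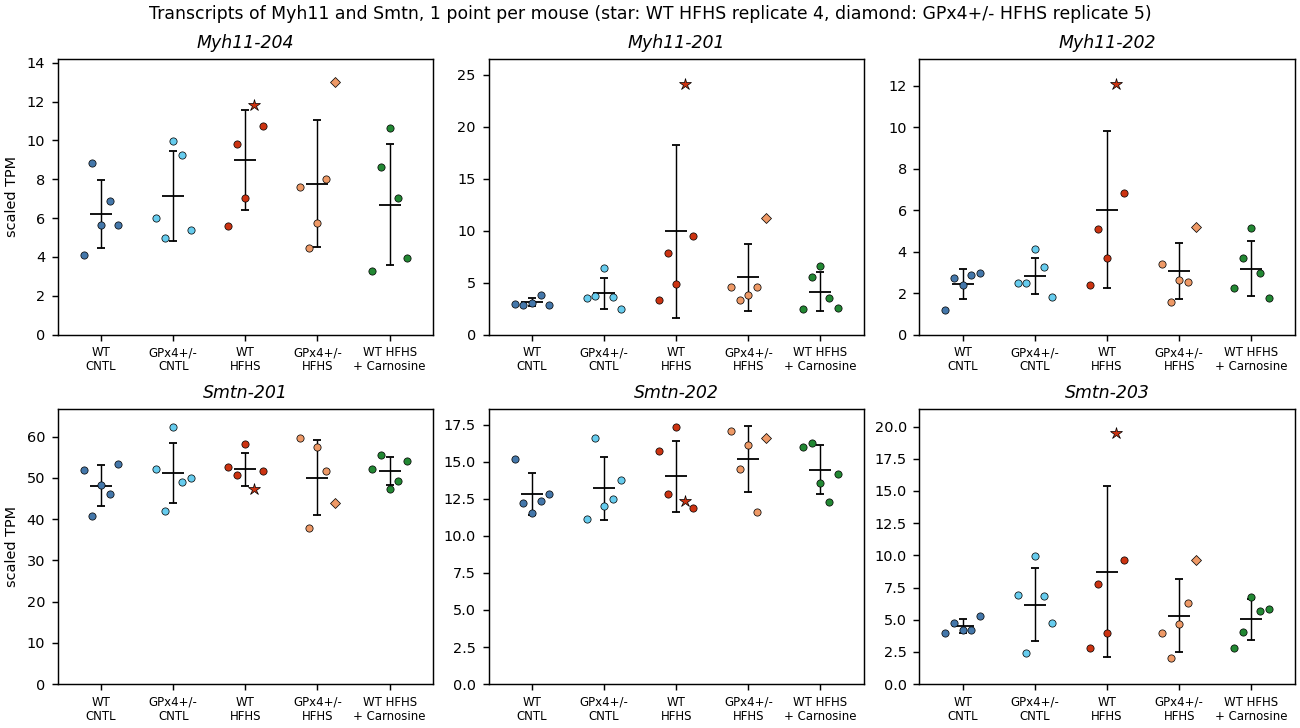
Scaled TPM of 3 transcripts of Myh11 and 3 of Smtn in the 25 mice by group (linear axes from 0), 1 point per mouse, with the group mean and 1 SD. WT HFHS replicate 4 (star) has 24.1 of Myh11-201 and 19.5 of Smtn-203 but is inside the range of the other mice for Myh11-204, Smtn-201 and Smtn-202.

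Other genes of the same pathway were taken as lists, also drawn up with results of these mice known. Of 25 other contractile and cytoskeletal genes of smooth muscle, 2 were called higher with the diet in GPx4+/- mice and none lower, beside 3.34% of all genes called, with a median log2 fold change of 0.08. These were Nexn, the actin-binding nexilin (0.28, standard error 0.07, adjusted p = 0.0227 from limma), and Hspb6, the small heat shock protein HSP20 (0.24, standard error 0.06, adjusted p = 0.0358). Nexn was called in 26 and Hspb6 in 19 of 32 fits over all alternatives. Nexn lost its call without any 1 of 4 of the 10 GPx4+/- mice, with a log2 fold change between 0.24 and 0.27 in those fits. Hspb6 lost its call without any 1 of 7 of the 10 GPx4+/- mice, with a log2 fold change between 0.19 and 0.25 in those fits. In WT mice none of the 25 was called by limma and 8 had an unadjusted p under 0.05, where 16.5% of all genes did, with a median of 0.15 and of 0.05 without WT HFHS replicate 4. In that mouse 17 of the 25 were above the other 4 of its group, with a median ratio of 1.35. The share of all tested genes above in that mouse was not computed. This count and the like counts below are therefore descriptions only. The 4 most abundant genes of this list, Tpm1 (6645 scaled TPM), Hspb6 (746), Des (715) and Ldb3 (642), are genes that cardiomyocytes also express, and their level hides any share that comes from smooth muscle.

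Of 20 tested genes of serum response factor, myocardin and related transcription control, Mrtfa, a coactivator of serum response factor, rose with the diet in WT mice (0.42, standard error 0.10, adjusted p = 0.0381 from limma), but the call was lost without WT HFHS replicate 4 (0.44, adjusted p = 0.0531 from limma) and held in 17 of 31 fits in all. Its value was -0.12 when its most abundant transcript alone was used. Mean Mrtfa was 1.72 scaled TPM in WT CNTL and 2.47 in WT HFHS, but 2.57 in GPx4+/- CNTL and 2.16 in GPx4+/- HFHS. Tead1, a factor that binds muscle gene promoters, was called higher with the diet in GPx4+/- mice (0.35, standard error 0.09, adjusted p = 0.0412 from limma), but in only 13 of 32 fits. Its call was lost without any 1 of 11 mice, with a log2 fold change between 0.27 and 0.37 in those fits. Mean Tead1 was 35.1 scaled TPM in GPx4+/- CNTL, the lowest group, and 44.7 in GPx4+/- HFHS. In WT mice it was 41.3 on CNTL and 41.0 on HFHS. None of the 20 was called lower in either genotype, and 1 call of 20 in each stands beside 1.18% of all genes called in WT and 3.34% in GPx4+/- mice. The log2 fold change was above 0 for 12 of the 20 in WT and for 10 in GPx4+/- mice. An unadjusted p under 0.05 was found for 5 of the 20 in WT and 4 in GPx4+/- mice, beside 16.5% and 18.3% of all genes. For genotype on CNTL it was found for 6 of the 20, 2 of them higher in GPx4+/- mice, beside 6.28% of all genes, and none was called. Srf itself was at 62.9 scaled TPM in WT HFHS replicate 4 and at 50.3 to 59.5 in the other 4 mice of that group. In that mouse 10 of the 20 were above the other 4 of its group. The median ratio of this list there was 1.06, against 3.01 for the 10 contractile genes.

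Genes that set calcium and myosin phosphatase activity (26 tested) and receptors of vascular tone (13 tested) gave no call in any of the 7 comparisons, with unadjusted p under 0.05 in 6 of 26 and 2 of 13 for the diet in WT mice and in 5 of 26 and 2 of 13 in GPx4+/- mice, near the 16.5% and 18.3% of all genes in these comparisons. Of the first list, Pln, Rgs5, Ppp1cb and Rhoa were the most abundant, at 2769, 171, 113 and 109.9 scaled TPM. Pln, phospholamban, is a cardiomyocyte gene, and Rgs5 marks pericytes. Of the receptors, Chrm2, Agtr1a, Adra1b and P2ry1 lay between 13.4 and 20.6 on average, and Agtr1a, the angiotensin receptor, was at 15.5 in WT HFHS replicate 4 against 16.6 to 21.3 in the rest of its group. Neither list was raised in that mouse, with median ratios of 1.04 for both and 8 of 26 and 4 of 13 genes above the other 4 mice.

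Matrix genes of vessel walls (20 tested) and the other actins and myosin heavy chains (9 tested) had no call in any comparison, with unadjusted p under 0.05 for the diet in 7 and 2 genes in WT and in 4 and 3 in GPx4+/- mice, beside 16.5% and 18.3% of all genes. The matrix list had a median of 0.33 for the diet in WT mice, 0.18 without replicate 4 and 0.17 in GPx4+/- mice. Its most abundant genes were Sparcl1, Itgb1, Ltbp4 and Fbln2. In WT HFHS replicate 4, 18 of the 20 exceeded all 4 other WT HFHS mice, with a sum of 1029 scaled TPM against 675 to 834. No share of all tested genes stands beside this count. Of the actins, Actb, the cytoplasmic beta-actin, was at 227 there against 139 to 181, while Myh6 and Actc1, the cardiac motor and actin, were at 7783 and 7947. Acta1, the skeletal alpha-actin, ranged from 115 to 1000 in the other 4 WT HFHS mice.

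Markers of other cell types were read in the same 2 mice, again without a share of all tested genes beside the counts. In WT HFHS replicate 4 all 8 fibroblast markers were above the other 4 mice of the group, with a sum of 1772 scaled TPM against 1045 to 1486, and Dcn, decorin, was at 423 against 247 to 328. All 4 tested markers of activated fibroblasts, of which Acta2 is 1, were also above them, with periostin (Postn) at 60.3 against 13.8 to 43.0 and Comp at 30.1 against 0.522 to 15.6. Of 5 markers of endocardium and vein, 4 were above, with a sum of 129 against 27.7 to 70.1. The pericyte sum was 311 against 342 to 350.3, with Rgs5 and Abcc9 below the other 4 mice but 2 of the 8 markers, Pdgfrb among them, above. The endothelial sum was 422 against 400.1 to 419, with 1 of the 8 markers, Pecam1, above the other 4 mice and Egfl7 and Cdh5 below them, and the ventricular cardiomyocyte sum was 46163, the lowest of the 25 mice.

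GPx4+/- HFHS replicate 5 had high contractile genes with fewer fibroblast, matrix and endocardium and vein genes above its group than WT HFHS replicate 4. Its activated fibroblast markers summed to 158 scaled TPM against 86.2 to 140, and of the 4 tested only Acta2, itself a member, was above. Its endothelial sum lay above and its ventricular sum below the other mice of its group, as in WT HFHS replicate 4. Of its 8 fibroblast markers 2 were above the other 4 mice of the group, with a sum of 1129 against 959 to 1777, and of the 20 matrix genes 7 were. Its markers of endocardium and vein summed to 36.9 against 27.7 to 83.1, its pericyte markers to 382 against 351 to 387, its endothelial markers to 455 against 374 to 422 and its ventricular cardiomyocyte markers to 46640.3 against 47098 to 52109. The atrial sum was 65.1 in this mouse and 156 in WT HFHS replicate 4, ranks 24 and 15 of the 25 mice. Collagen III (Col3a1), a fibroblast marker, was at 75.1 against 28.6 to 49.2. The part of these other cells in the level of the contractile genes was not tested.

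By group, fibroblast markers summed to 1045 to 1772 scaled TPM in WT HFHS, 966 to 1563 with carnosine and 959 to 1777 in GPx4+/- HFHS, and on chow to 831 to 1682 in WT and 787 to 1439 in GPx4+/- mice. Pericyte markers lay between 293 and 403 in all 25 mice. None of the 8 fibroblast, 4 activated fibroblast, 8 pericyte, 8 endothelial, 5 endocardium and vein, 8 ventricular or 8 atrial markers was called in any of the 7 comparisons. Of the adipocyte, Schwann cell and skeletal muscle lists 2 of 6, 1 of 6 and 1 of 6 genes were tested and none was called. Of the 8 ventricular cardiomyocyte markers, 5 had an unadjusted p under 0.05 between WT HFHS + Carnosine and WT CNTL, 4 of them lower, where 13.1% of all genes had such a p. For the diet in WT mice 4 of these 8 did, all lower, beside 16.5% of all genes, and no marker list had more than 5 in any comparison. The skeletal myosins Myh4, Myh1 and Myh2 stayed under 0.5 scaled TPM in every mouse, and Adipoq, the adipocyte hormone adiponectin, reached 3.17 in 1 GPx4+/- HFHS mouse. Schwann cell markers summed to no more than 7.41 in any mouse.

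**Figure D5:**
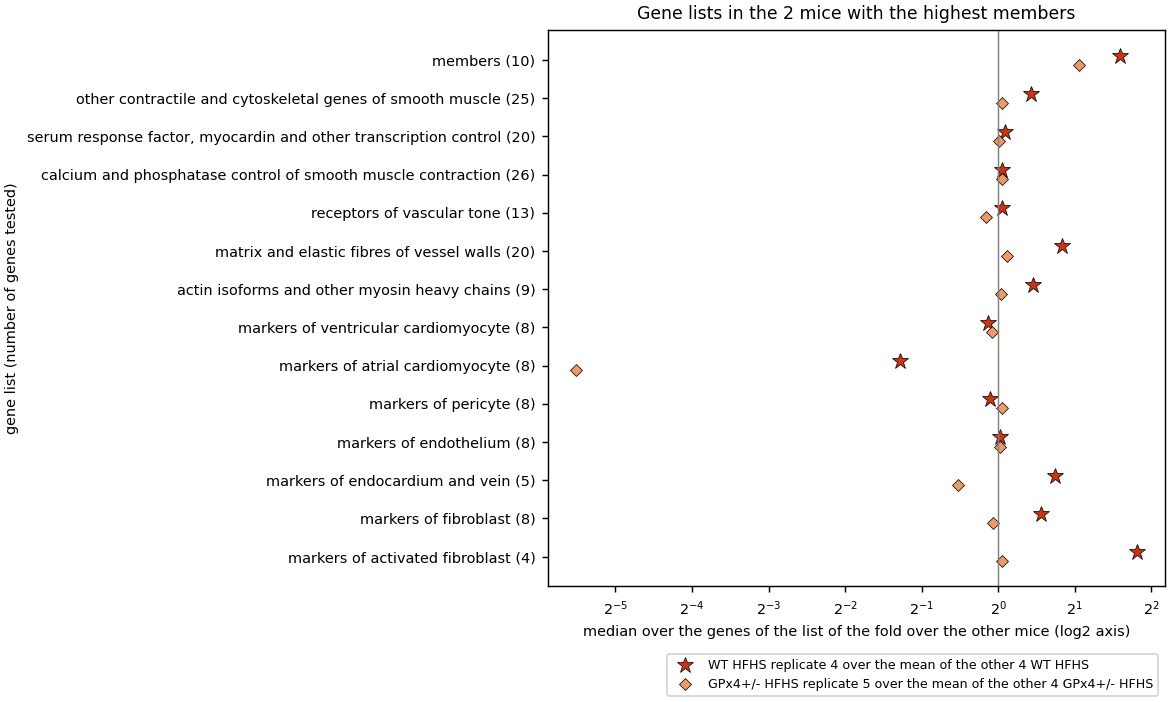
For each gene list with at least 4 tested genes (rows, number tested in brackets), the median over its genes of the ratio between 1 mouse and the mean of the other 4 mice of its group, on a log2 axis. WT HFHS replicate 4 (star) is high for the 10 contractile genes (3.01) and for the lists of activated fibroblast (3.50), matrix (1.78), endocardium and vein (1.67) and fibroblast (1.47), with 1.36 for other actins and myosins and 1.35 for other contractile genes, and GPx4+/- HFHS replicate 5 (diamond) for the contractile genes (2.07) but between 0.697 and 1.08 for those 6 lists.

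The genes outside the set whose pattern over the 25 mice was most like the mean of the 10, after subtraction of group means, were Csrp1 (r = 0.91, rho = 0.83), Ccdc3 (0.89 and 0.85), Mustn1 (0.88 and 0.87), Flna (0.87 and 0.70), Tpm2 (0.85 and 0.80), Actn1 (0.85 and 0.68), Map3k7cl (0.85 and 0.74) and Susd2 (0.84 and 0.78). Csrp1, a LIM protein of actin bundles, was at 65.7 scaled TPM in WT HFHS replicate 4 and at 25.5 to 37.5 in the other 4. Without that mouse, over 24 mice, Mustn1 (r = 0.86), Csrp1 (0.85), Ccdc3 (0.85), Susd2 (0.82), Tpm2 (0.81) and Flna (0.77) were again among the first 8, and Atp1b2 (0.80) and Atp2a3 (0.79) took the place of Actn1 and Map3k7cl. Atp1b2, a sodium pump subunit, was at 10.2 in replicate 4, within the 9.25 to 12.1 of its group. The points share libraries and the set was picked from them, so these values are a description.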

How the data were processed

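The mRNA of heart tissue, left ventricular per the labels' extraction protocol, of 25 mice (5 per group, stranded poly(A) libraries, 150-base paired reads) had been sequenced. The authors deposited TPM per transcript, with a transcript length that was not used. The submitters' processing notes name kallisto 0.43.1 and sleuth 0.30.0 without their role, and the paper's methods describe STAR and DESeq2 for its own tests. Columns were matched to mice by library name, since the stated column positions disagree with these names. Of 119215 transcripts, 116772 were matched to GENCODE M21 (GRCm38), summed by gene, divided by median-ratio factors over 11879 genes, and tested on log2 with a pseudocount of 0.5 where the mean was at least 1. Because TPM are not counts, limma 3.58.1 (R 4.3.3, empirical Bayes with a mean-variance trend) was used, with a threshold of 0.05. The mice without carnosine were fitted together, and each carnosine comparison was fitted on its own 10 mice. The fit was tested on simulated data. Members, gene lists and tests were chosen with earlier results of these data known. The rule for named genes takes all 10 members, the 4 most abundant genes of each other list, the genes of a list that were called where they were 5 or fewer, and the 8 genes most like the mean of the members; the skeletal myosins, and Smtn-203, which holds under 10% of Smtn, were named after their values were seen. Alternatives were TPM as deposited, a pseudocount of 0.1, a minimum of 5 or no filter, array weights, quantile normalization, the replicate number as a block, all 25 mice in 1 fit, the most abundant transcript and each mouse left out. Each mouse is a separate animal, and the sample titles do not say that replicate numbers pair animals. No 2 libraries held the same values. Dates of preparation are not given in the sources used here.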

Additional observations from a re-analysis of the deposited data

Results flagged for a closer look

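Of 65 groups of 5 values examined (10 genes, the sum of the 8 variable genes and 2 shares of Myh11 exons, in 5 groups), 11 held a mouse whose gap to the nearest other mouse took more than 0.71 of the group's whole range. Chance gives about 1 in 20 groups of normally distributed values, while scaled TPM was used here without a log. That rate is also no measure for these genes because they vary together. They were chosen in part for their high level in WT HFHS replicate 4, the mouse of 6 of the 11. In WT HFHS, replicate 4 stood apart for Itga8 (0.849 of the range), Acta2 (0.786), Tagln (0.751), Lmod1 (0.751), Cnn1 (0.747) and the sum of the 8 genes (0.748). In GPx4+/- HFHS, replicate 5 stood apart for Actg2 (0.873), Cnn1 (0.868) and Tagln (0.724). In WT HFHS + Carnosine, replicate 3 stood apart for Itga8 (0.79), at 2.25 scaled TPM against 0.818 to 1.12. In WT CNTL, replicate 2 stood apart for the share of Myh11 with the exon of 21 bases (0.852), at 61.2% against 49.2% to 50.9%. Cnn1 in GPx4+/- HFHS replicate 5 was at 10.1 scaled TPM against 2.50 to 3.51 in the other 4 mice.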

How the results depend on the processing

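No member was called under any of the 196 combinations of comparison and alternative, where the smallest adjusted p from limma was 0.0770, for the diet in WT mice. With each mouse left out in turn, the median log2 fold change of the 10 genes lay between 0.45 (without WT HFHS replicate 4) and 1.09 for the diet in WT, between 0.03 (without GPx4+/- HFHS replicate 5) and 0.35 for the diet in GPx4+/-, between -0.08 and 0.11 for genotype on CNTL, between -0.75 and -0.16 for genotype on HFHS, between -0.83 and -0.23 for the interaction, between -0.998 and -0.40 for carnosine against WT HFHS and between -0.08 and 0.13 for carnosine against WT CNTL. Of 1932 values of single members, 83 had another sign than the value reported, and each of those reported values was 0.18 or smaller in size. In 5 cases the value moved by more than the spread between mice, namely the interaction of Smtn (-0.16), Mylk (-0.12) and Synpo2 (0.14) with the most abundant transcript, and with TPM as deposited the interaction (-0.10) and the diet in GPx4+/- (-0.08) of Synpo2. With both highest mice left out, an alternative chosen after seeing the data, the medians were 0.45 for the diet in WT and 0.03 in GPx4+/-, and 89 and 214 genes were called. TPM rescaled without mitochondrial transcripts was also added after seeing the data.

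The replicate number as a block gave the same medians (0.85 for the diet in WT, 0.22 in GPx4+/-) and called no member. Same-numbered mice of different groups did not deviate together (median r = -0.00 over 50 pairs, beside 0.02 over 200 pairs with different numbers). This gives no sign that the numbers pair the animals, but a median near 0 cannot exclude it. The block moved the count of all genes called for the diet in WT from 142 to 68 and for carnosine against WT CNTL from 28 to 0.

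Counts over all genes moved more. Over the alternatives, apart from mice left out, they ran from 38 to 405 for the diet in WT (142 reported), from 221 to 424 in GPx4+/- (400 reported), from 4 to 9 and from 4 to 7 for genotype on CNTL and on HFHS (6 reported for each) and from 0 to 141 for carnosine against WT CNTL (28 reported). With each mouse left out they ran from 36 to 202, 191 to 484, 4 to 7, 5 to 8 and 4 to 78. For the diet in GPx4+/- mice, 261 genes were higher and 139 lower as reported, and 37 and 387 with TPM as deposited, where the median of all genes shifted to -0.10. At a minimum mean of 5, 6 of the 10 members were left. The counts of fits given for Mrtfa, Hspb6, Nexn and Tead1 include the reported fit. Mrtfa lost its call without any 1 of 8 of the 10 WT mice on CNTL or HFHS, with log2 fold changes between 0.38 and 0.44 there.

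TPM keeps no depth, so the reads behind the low values of Actg2, Itga8 and Lmod1 are unknown. With 5 mice per group and the within-group spread of these genes, intervals of a fold change were wide, and a p that missed the threshold does not show that groups were alike.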
